A study of Mus musculus with 18 samples.

Results

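The expression of 10 genes of the Notch pathway was followed in 2 murine lung cancer lines, EA1 and EA2, each grown in culture and recovered from tumors. They were 4 ligands (Jag1, Jag2, Dll1 and Dll4), 3 receptors (Notch1, Notch2 and Notch3) and 3 targets (Hes1, Hey1 and Nrarp), chosen by gene name as members of the pathway. All 10 were found in the expression tables of both lines, out of 24386 genes named in either table. Both lines carry an Eml4-Alk fusion; EA1 cells are p53 WT and EA2 cells are p53 null, and each is a single established line. The in vitro libraries came from cultured cells (5 for EA1, 3 for EA2). The in vivo libraries (5 for each line) came from cells placed in the left lung of hosts of the C57BL/6 strain that express a GFP transgene. After 3 to 4 weeks in the record (4 in the methods) the tumors were dissociated and GFP-negative cells were sorted, so that an in vivo library held every sorted cell without GFP from a pool of 3 to 5 mice. Values are FPKM, fragment numbers scaled to transcript length and to the fragments mapped in the library. The replicates were described as independent, but nothing said that the cultures were separately derived, so p-values measure the spread between these libraries.

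Notch receptors are single-pass membrane proteins that are activated by ligands on a neighboring cell. Ligand binding exposes a site for the protease ADAM10, and gamma-secretase then frees the intracellular domain, which joins the DNA-binding protein RBPJ in the nucleus and switches on genes such as Hes1, Hey1 and Nrarp. In the lung the pathway is known for its part in the choice between secretory and ciliated airway fates and in blood vessels, where Dll4 is an endothelial ligand and Notch3 a receptor of mural cells.

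The upstream sequences of the receptors and of Nrarp are shown because these were the members with called changes whose windows lay outside the GENCODE exons of the gene. Promoter windows were available for 8 of the 10 members, all but Hes1 and Hey1 (RefSeq, GRCm38.p6, 250 bases upstream of the start site used). The Notch3 window overlaps the RefSeq span of the gene by 6 bases. GC boxes, searched as GGGCGG on both strands, are in capitals.
Notch1, chr2:26503823-26504072, minus strand: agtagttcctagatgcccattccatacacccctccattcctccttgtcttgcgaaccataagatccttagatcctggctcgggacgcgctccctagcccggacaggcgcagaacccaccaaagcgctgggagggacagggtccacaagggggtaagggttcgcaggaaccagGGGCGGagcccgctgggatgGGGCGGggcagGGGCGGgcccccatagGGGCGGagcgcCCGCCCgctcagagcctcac
Notch2, chr3:98013288-98013537, plus strand: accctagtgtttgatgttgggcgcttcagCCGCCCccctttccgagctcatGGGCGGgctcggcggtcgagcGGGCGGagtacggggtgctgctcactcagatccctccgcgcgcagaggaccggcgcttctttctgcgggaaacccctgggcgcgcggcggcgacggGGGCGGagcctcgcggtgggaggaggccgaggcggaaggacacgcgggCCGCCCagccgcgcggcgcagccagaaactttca
Notch3, chr17:32166891-32167140, minus strand: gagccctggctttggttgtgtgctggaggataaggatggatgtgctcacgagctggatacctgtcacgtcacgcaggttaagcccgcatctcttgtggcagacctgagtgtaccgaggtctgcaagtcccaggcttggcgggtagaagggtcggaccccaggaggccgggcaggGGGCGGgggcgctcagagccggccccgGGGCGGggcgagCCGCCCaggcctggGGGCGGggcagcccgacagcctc
Nrarp, chr2:25180508-25180757, plus strand: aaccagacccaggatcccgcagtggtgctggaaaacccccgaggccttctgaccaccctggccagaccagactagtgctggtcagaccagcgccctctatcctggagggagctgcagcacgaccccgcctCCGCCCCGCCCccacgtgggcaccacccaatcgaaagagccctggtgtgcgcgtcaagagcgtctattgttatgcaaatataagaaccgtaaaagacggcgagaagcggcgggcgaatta
In GRCm38.p6 coordinates, the genes span chr2:26457902-26503822 (Notch1, 34 exons), chr3:98013538-98150367 (Notch2, 34 exons), chr17:32120820-32166896 (Notch3, 33 exons) and chr2:25180758-25183339 (Nrarp, 1 exon), and the ligand genes that changed in EA1 span chr2:137081451-137116520 (Jag1, 26 exons) and chr12:112907803-112929812 (Jag2, 26 exons). All are protein coding. The Notch1 and Notch2 windows each held 5 GC boxes, the Notch3 window held 4 and the Nrarp window held 2, in overlapping letters. The window of Jag2, not printed, also held 5, and that of Jag1 held 0. Any GC box was found in 32.7% of 32851 mouse windows of the same length, and 4 or more in 4.09%. The RBPJ core, searched as TGGGAA on both strands, was in none of the 9 windows of the members and in 21.6% of all windows. Of the targets, only Nrarp had a window, so Hes1 and Hey1 were not searched. These matches describe letters in a window and are not binding sites.

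The libraries set limits on what follows. In EA2, in vitro libraries 1 and 3 had FPKM sums of 733184 and 717905, against 518260 in library 2 and 475434 to 484492 in the in vivo libraries. The same libraries had low values for long transcripts: genes of the longest class (6147 bases or more) had a median log2 level 1.12 and 0.80 below the in vivo mean, against 0.38 below it in library 2. Read depth was not stated per library, and the lowest FPKM values, multiplied by transcript length, clustered at 25.3 to 43.7 in 17 libraries and at 121 in EA2 in vivo 5, the library with the fewest genes above 0.01 FPKM (13155 against 13944 to 15662 in the other EA2 libraries). Alk, the gene of the fusion, was higher in vivo in both lines (log2 change 0.62, adjusted p = 0.00198 by limma in EA1; 1.21, adjusted p = 0.0056 by limma in EA2). The epithelial keratin Krt8 was at 1404 to 1635 FPKM in EA1 in vitro but at 22.5 to 93.3 FPKM in EA2 in vitro, whereas its partner keratin Krt18 was at 554 to 874 FPKM in EA2 in vitro. Epcam, an epithelial adhesion gene, was at 1.52 to 2.27 FPKM in EA1 in vitro, 35.5 to 150 FPKM in EA1 in vivo and 0.207 FPKM or less in every EA2 in vitro library. Krt18 was named after its values were seen.

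Markers of other cell types of the lung were called higher in vivo in most lists in EA1 and in fewer in EA2. In EA1, all 9 tested endothelial markers of a list of 14 were called higher, and their summed level went from 2.71 to 3.57 FPKM in vitro to 32.8 to 86.2 FPKM in vivo. Fibroblast markers were called higher in 8 of 8 tested (list of 10; sum 8.19 to 10.9 in vitro, 171 to 2840 FPKM in vivo), and pericyte and smooth muscle markers in 3 of 4 tested (list of 12; sum 9.69 to 14.0 in vitro, 37.5 to 190 FPKM in vivo). In EA2, none of the 2 tested endothelial markers was called (sum 1.60 to 1.82 in vitro, 1.63 to 21.6 FPKM in vivo). Fibroblast markers were higher in 4 of 5 tested (sum 6.75 to 31.8 in vitro, 363 to 825 FPKM in vivo). Dcn led this sum, at 0.369 to 19.1 FPKM in vitro and 306 to 769 FPKM in vivo. Col1a1, Col3a1 and Fbln1 were also called higher, and Col1a2 was not called (limma adjusted p = 0.344). Lum, Postn and Tcf21 were at 0.320 FPKM or less in every EA2 in vivo library. Of 2 tested pericyte and smooth muscle markers, 1 was higher (sum 0.357 to 9.04 in vitro, 4.19 to 18.1 FPKM in vivo). Airway club and ciliated markers were higher in 4 of 4 tested in EA1 (list of 8, sum 0.784 to 1.46 in vitro, 252 to 951 FPKM in vivo). In EA2, 3 of 4 were higher (sum 0.173 to 1.36 in vitro, 15.8 to 169 FPKM in vivo). The club cell secretoglobin Scgb1a1 led both sums. The ciliated genes Foxj1, Ccdc39, Dnah5 and Rsph1 were below 1 FPKM in every library and not tested. Tppp3, also a ciliated gene, was called higher in EA1 (limma adjusted p = 2.56e-06) and not called in EA2 (limma adjusted p = 0.477). Macrophage and other leukocyte markers were higher in 3 of 3 tested in EA1 and in 1 of 3 in EA2 (lists of 12). Of 8 alveolar markers, 5 were higher and 1 lower of 6 tested in EA1 (sum 3.06 to 4.80 in vitro, 36.0 to 235 FPKM in vivo), and 1 was higher and 1 lower of 3 tested in EA2 (sum 9.66 to 42.1 in vitro, 5.59 to 28.9 FPKM in vivo). Many of these markers passed the filter only through in vivo libraries (in EA1, 8 of the 9 endothelial, 5 of the 8 fibroblast and all 4 airway markers), so their calls are a description, and 30.9% of all genes were called higher in EA1 and 32.9% in EA2. The leukocyte gene Ptprc and the endothelial gene Cdh5 were listed at 0 in every EA2 in vitro library. In a bulk library, a change in the number of cells of a type and in the RNA per cell cannot be told apart.

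Each gene was compared in vivo against in vitro within a line with limma on log2(FPKM + 1), and p-values were adjusted over all genes tested (11212 in EA1, 11074 in EA2). Fold changes on this scale understate the change of genes with low values. In EA1, 3 members were called higher in vivo (Notch1, Notch2, Notch3) and 3 lower (Jag1, Jag2, Nrarp) of 9 tested, where 30.9% of all genes were called higher and 40.7% lower. In EA2, 4 members were called higher (Jag1, Notch1, Notch2, Notch3) and 0 lower of 9 tested, where 32.9% of all genes were called higher and 24.4% lower. The share of members called was near the share of all genes called, 71.5% in EA1 and 57.3% in EA2, so the count of calls does not set the members apart. The groups did not overlap for 6 of the 9 tested members in EA1 (3 higher and 3 lower, against 25.3% and 32.5% of all genes, 57.8% in either direction) and for 3 of 9 in EA2 (3 higher and 0 lower, against 28.1% and 22.8% of all genes, 50.8% in either direction). All 3 receptors were called higher in both lines, as were 13.6% of the 10334 genes tested in both. Notch3 in both lines and Notch1 in EA2 entered the test only through their in vivo libraries: they had no in vitro library at 1 FPKM, so their calls are given as a description.

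**Figure D1:**
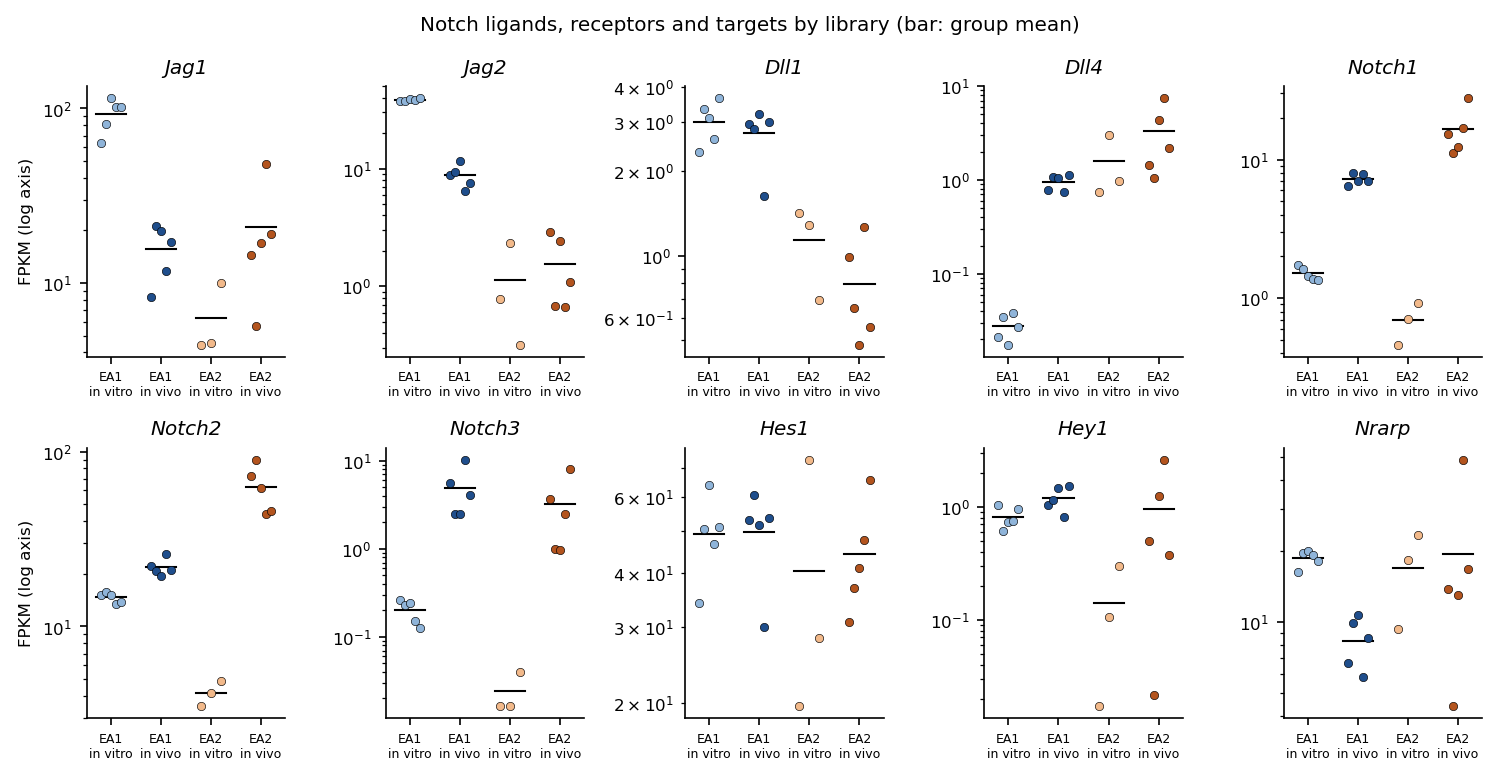
FPKM of each of the 10 genes (log axes, a scale of its own for each gene) in the 18 libraries; each point is 1 library and the bar is the group mean. The receptors are higher in vivo with no overlap in either line, and Jag1, Jag2 and Nrarp are lower in vivo with no overlap in EA1.

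**Figure D2:**
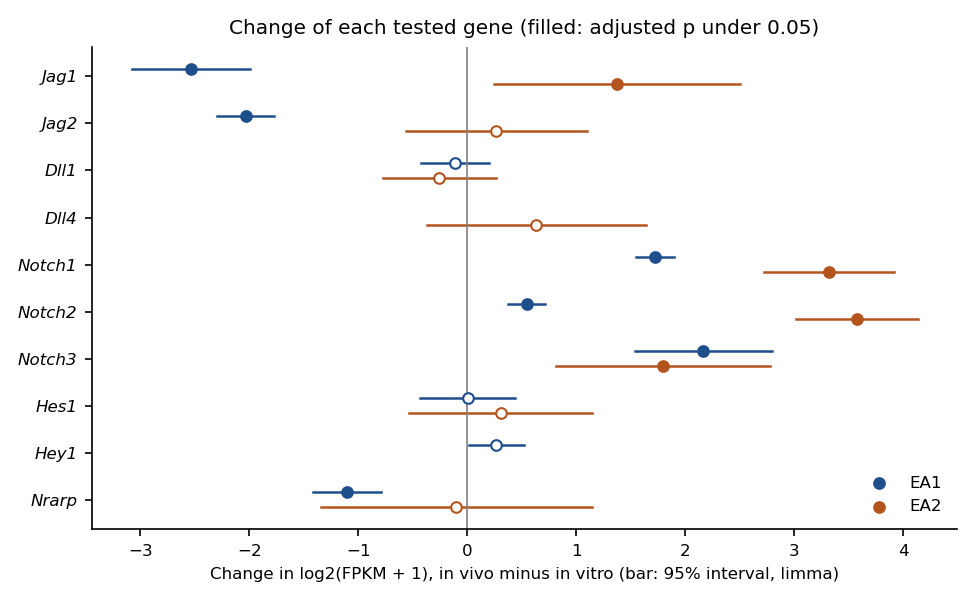
Change in log2(FPKM + 1), in vivo minus in vitro, for each tested gene with its 95% interval from limma; filled points have an adjusted p under 0.05. Jag1 changed by -2.54 in EA1 and 1.37 in EA2, and Notch2 by 0.54 and 3.58.

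Jag1 and Jag2, ligands of the Jagged family, were the most abundant ligands of cultured EA1 cells, and both were lower in EA1 tumors. Jag1 was at 63.8, 81.4, 114, 102 and 102 FPKM in EA1 in vitro and at 8.29, 21.3, 19.8, 11.7 and 17.2 FPKM in vivo. The groups did not overlap. The mean fell from 92.7 ± 20.04 to 15.7 ± 5.52 FPKM (SD, n = 5 each), 5.92-fold lower, with a log2 change of -2.54 (SE 0.25, limma adjusted p = 4.17e-06). Jag2 was at 37.4 to 39.5 FPKM in vitro and at 8.76, 9.42, 11.6, 6.42 and 7.62 FPKM in vivo, again with no overlap, and it was 4.37-fold lower (log2 change -2.03, SE 0.12, limma adjusted p = 1.2e-07).

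In EA2 the same ligands started low. Jag1 was at 4.44, 4.54 and 9.95 FPKM in vitro and at 14.5, 5.71, 16.9, 48.1 and 19.2 FPKM in vivo. The groups overlapped, because in vivo library 2 lay below in vitro library 3. The log2 change of 1.37 (SE 0.51, limma adjusted p = 0.0392) was near the threshold, the exact permutation p was 0.0714 and the adjusted p rose above 0.05 with 6 of the 8 libraries left out in turn and under 6 of 9 other settings. Jag2 was at 0.787, 2.32 and 0.321 FPKM in vitro and at 2.91, 0.682, 2.41, 0.670 and 1.08 FPKM in vivo, and a change was not detected (log2 change 0.27, 95% interval -0.56 to 1.10). The change of Jag1 differed between the lines by 3.91 on the log2 scale (SE 0.59, adjusted p = 2.93e-05 for the interaction term in limma) and that of Jag2 by 2.30 (SE 0.38, adjusted p = 7.11e-05 in limma), where 63.3% of 11930 genes had a called difference.

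The Delta family ligands were lower than the Jagged ligands in EA1. Dll1 was at 2.34 to 3.64 FPKM in EA1 in vitro and 1.63 to 3.21 FPKM in vivo, with no change detected (log2 change -0.11, 95% interval -0.42 to 0.20). In EA2 it was at 0.694 to 1.42 FPKM in vitro and 0.483 to 1.27 FPKM in vivo (log2 change -0.25, 95% interval -0.77 to 0.26). Dll4, the endothelial ligand, was at 0.0177 to 0.0387 FPKM in EA1 in vitro, about 1.9 to 5.1 fragments by the cluster of lowest values, and at 0.783, 1.08, 1.05, 0.751 and 1.13 FPKM in vivo. Only 3 of 10 libraries reached 1 FPKM, so Dll4 was not in the EA1 fit; the groups did not overlap and the exact permutation p was 0.00794, the smallest that 5 against 5 libraries can give. In EA2, Dll4 was at 0.749, 3.00 and 0.970 FPKM in vitro and at 1.44, 1.05, 4.37, 7.40 and 2.18 FPKM in vivo, and a change was not detected (log2 change 0.63, 95% interval -0.37 to 1.64). The endothelial gene Cdh5 was at 0.0362 to 0.0890 FPKM in EA1 in vitro and 3.97 to 10.9 FPKM in vivo. Among EA1 in vivo libraries, Dll4 and Cdh5 were both lowest in library 4, but Dll4 was highest in library 5 and Cdh5 in library 3. In EA2 in vivo both were highest in library 4 (Cdh5 2.27 FPKM) and lowest in library 2. In EA2 in vitro, Cdh5 was listed at 0 in every library, with Dll4 at the values above. The part of endothelial RNA in the Dll4 values was not tested.

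All 3 receptors were higher in vivo in both lines, and the order Notch2, Notch1, Notch3 held by group mean in all 4 groups, with the ranges of Notch1 and Notch3 overlapping in EA1 in vivo. Notch2, the most abundant receptor, was at 13.5 to 15.8 FPKM in EA1 in vitro and at 22.1, 20.9, 19.5, 25.9 and 21.2 FPKM in vivo, a small change with no overlap (log2 change 0.54, SE 0.08, limma adjusted p = 8.38e-05). In EA2, Notch2 was at 3.51, 4.15 and 4.87 FPKM in vitro and at 72.1, 89.7, 61.7, 43.9 and 45.7 FPKM in vivo. This was 15.0-fold higher by means, and the lowest in vivo library was far above the highest in vitro library (log2 change 3.58, SE 0.25, limma adjusted p = 6.23e-06; exact permutation p = 0.0357, the smallest that 3 against 5 libraries can give with the tail doubled). The Notch2 change was greater in EA2 than in EA1 by 3.03 (SE 0.24, adjusted p = 9.61e-08 in limma).

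Notch1 rose in EA1 from 1.34 to 1.75 FPKM in vitro to 6.42, 7.99, 7.06, 7.85 and 7.04 FPKM in vivo (log2 change 1.72, SE 0.08, limma adjusted p = 2.66e-08). In EA2 it was at 0.463, 0.7101 and 0.930 FPKM in vitro and at 15.2, 11.2, 12.3, 16.8 and 27.7 FPKM in vivo, with a log2 change of 3.31 (SE 0.27, limma adjusted p = 1.57e-05). The groups did not overlap in either line, and the change was greater in EA2 by 1.59 (SE 0.26, adjusted p = 6.91e-05 in limma). The in vivo library with the highest Notch1, EA2 library 5, had Pecam1 at 0.119 and Cdh5 at 0.153 FPKM, both endothelial genes. The next highest, library 4, had the highest Pecam1 and Cdh5 of the group (2.70 and 2.27 FPKM), and library 2 had the lowest Notch1 and the lowest Cdh5 (0.0772 FPKM). The part of endothelial RNA in the Notch1 values was not tested.

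Notch3 was below 1 FPKM in every culture. It was at 0.126 to 0.262 FPKM in EA1 in vitro and at 5.59, 2.47, 2.46, 10.3 and 4.09 FPKM in vivo (log2 change 2.17, SE 0.28, limma adjusted p = 4.3e-05). In EA2 in vitro it was at 0.0166, 0.0164 and 0.0399 FPKM, about 4.5 to 8.5 fragments, and in vivo at 3.65, 1.01, 0.960, 2.48 and 8.03 FPKM (log2 change 1.80, SE 0.44, limma adjusted p = 0.00578). The change did not differ detectably between the lines (EA2 minus EA1 -0.37, 95% interval -1.51 to 0.78). Among EA1 in vivo libraries, Notch3 and the mural cell and fibroblast receptor Pdgfrb were both highest in library 4 (77.7 FPKM for Pdgfrb). Both were lowest in library 3 (15.1 FPKM for Pdgfrb), where Notch3 was level with library 2. Of other mural cell genes, Acta2 was also highest in library 4 (106 FPKM) and lowest in library 3 (13.7 FPKM). Rgs5 and Myh11 were instead highest in library 5 (5.97 and 0.253 FPKM). Cultured EA1 cells already had Rgs5 at 2.68 to 5.25 FPKM, and its change was not called (log2 change -0.71, limma adjusted p = 0.0568). The fibroblast gene Col1a1 was highest in library 4 (544 FPKM) and lowest in library 3 (36.6 FPKM). In EA2 in vivo, Notch3 was highest in library 5, where Pdgfrb was at 2.71 FPKM. Col1a1, a fibroblast collagen, was at 2.13 FPKM there, the lowest Col1a1 of that group. Myh11 was also highest in library 5, at 0.105 FPKM, whereas Pdgfrb (11.9 FPKM), Acta2 (4.24 FPKM) and Rgs5 (1.37 FPKM) were highest in library 4. Acta2 was at 0.244 to 8.05 FPKM in EA2 in vitro, with no change detected in vivo (limma adjusted p = 0.778). The part of these cells in the Notch3 values was not tested.

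**Figure D3:**
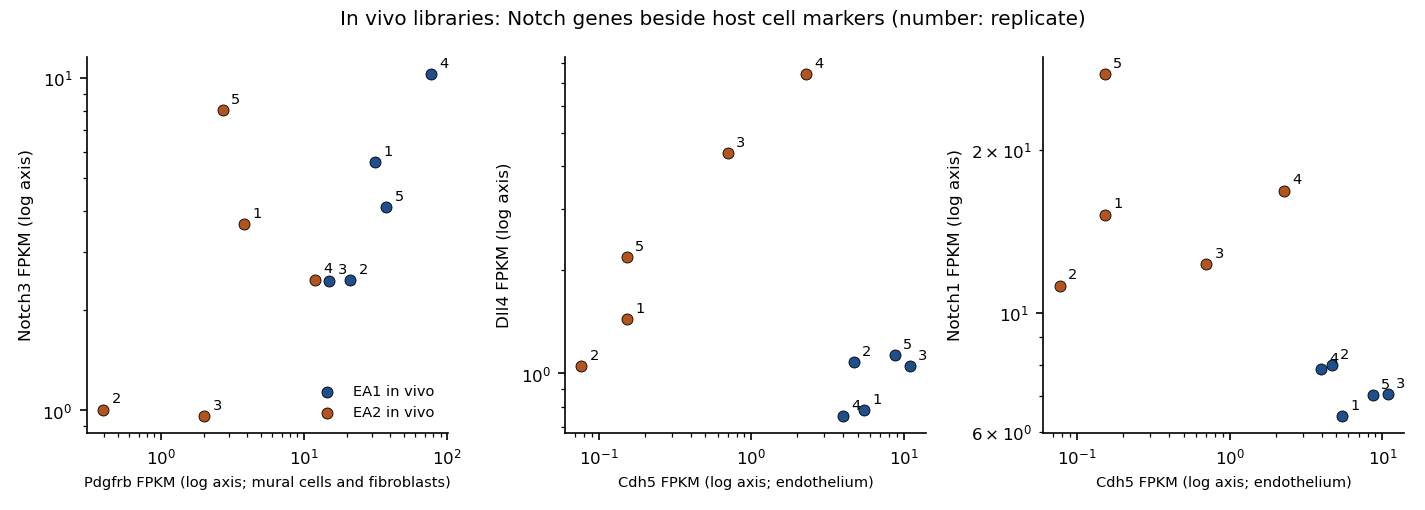
FPKM of Notch3 against Pdgfrb, and of Dll4 and Notch1 against Cdh5, in the 5 in vivo libraries of each line (log axes; the number is the replicate). In EA1, Notch3 and Pdgfrb share the highest library, number 4, whereas in EA2 Notch3 is highest in library 5 and Pdgfrb in library 4.

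Transcript length set another condition on the receptor values. Notch1, Notch2 and Notch3 have longest transcripts of 9488, 10500 and 8016 bases, in the longest of 8 length classes. In EA2, genes of that class had a median log2 change of 0.77, and 57% of them were called higher. Notch2 and Notch1 lay at the upper end of the class in EA2, with a higher change in 5 and 9 of 1378 genes, and Notch3 with a higher change in 95. In EA1 the class had a median log2 change of -0.30, and 17.8% of its genes were called higher. With the trend with length removed from each library, the EA2 log2 changes were 2.89 for Notch2 (limma adjusted p = 3.61e-05), 2.66 for Notch1 (limma adjusted p = 4.47e-05) and 1.21 for Notch3 (limma adjusted p = 0.0396), and that of Jag1 was 0.93 (limma adjusted p = 0.156). The difference between the lines in the Notch1 change then fell to 0.71 (limma adjusted p = 0.0201). With in vitro library 2 as the lone EA2 in vitro library, assumed to vary like the others, Notch2 changed by 3.58 (limma adjusted p = 0.00254), and Notch3 by 1.81 (limma adjusted p = 0.119).

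**Figure D4:**
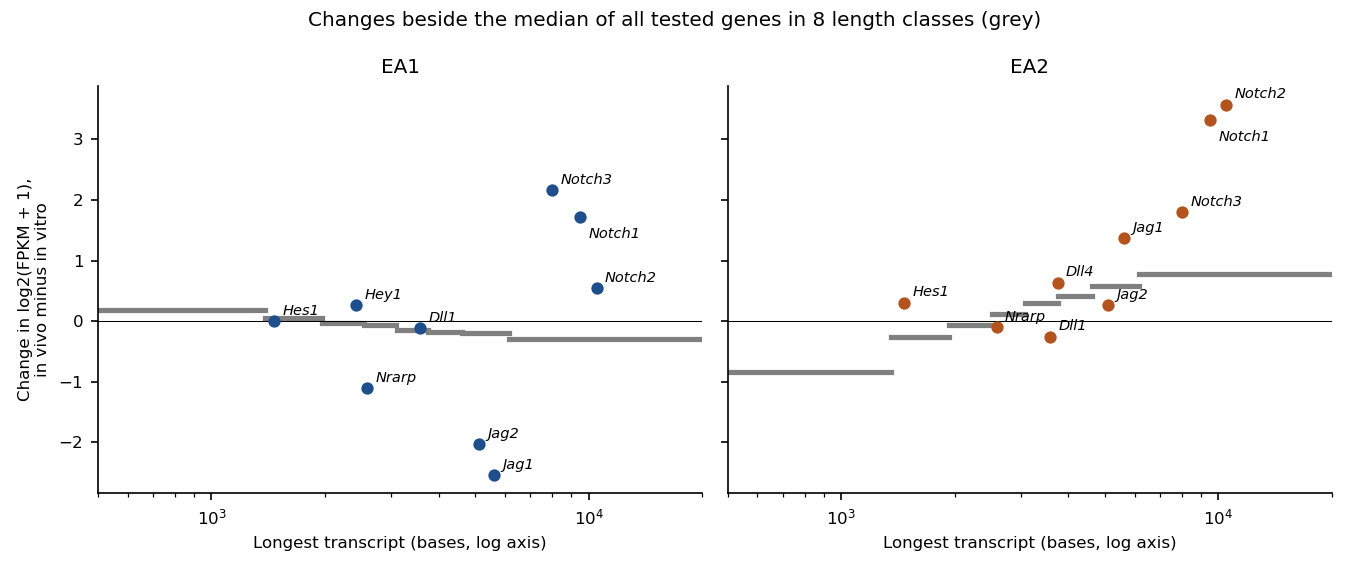
Change in log2(FPKM + 1), in vivo minus in vitro, against the longest transcript of each tested gene (log axis), with the median of all tested genes in 8 length classes as grey bars. The receptors lie above the median of their class, which is -0.30 in EA1 and 0.77 in EA2.

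The balance of ligand to receptor RNA shifted in both lines. Summed over the 4 ligands and the 3 receptors, the ratio of ligand to receptor FPKM was 6.07 to 9.54 in EA1 in vitro and 0.465 to 1.23 in EA1 in vivo. In EA2 it was 1.85 to 2.29 in vitro and 0.0794 to 0.909 in vivo. The ranges did not overlap within either line. The receptors have longer transcripts (8016 to 10500 bases) than the ligands (3581 to 5612 bases), and EA2 in vitro libraries 1 and 3 had low values for long transcripts. Their ratios were 1.85 and 2.04, against 2.29 in EA2 in vitro library 2. The part of transcript length in the ratios was not tested. The shares of single genes were as follows. Jag1 and Jag2 made up 97.7% ± 0.378 of ligand FPKM in EA1 in vitro and 86.6% ± 2.80 in vivo (SD, n = 5 each), and Notch2 made up 89.6% ± 0.824 of receptor FPKM in vitro and 64.6% ± 3.37 in vivo. In EA2, Jag1 and Jag2 made up 72.7% ± 12.4 of ligand FPKM in vitro (n = 3) and 83.9% ± 4.27 in vivo (n = 5), and Notch2 made up 85.5% ± 2.33 of receptor FPKM in vitro and 75.0% ± 12.5 in vivo, with overlapping ranges for both shares. These sums may add RNA of different cell types, and neither the sums nor the cell sources were tested.

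**Figure D5:**
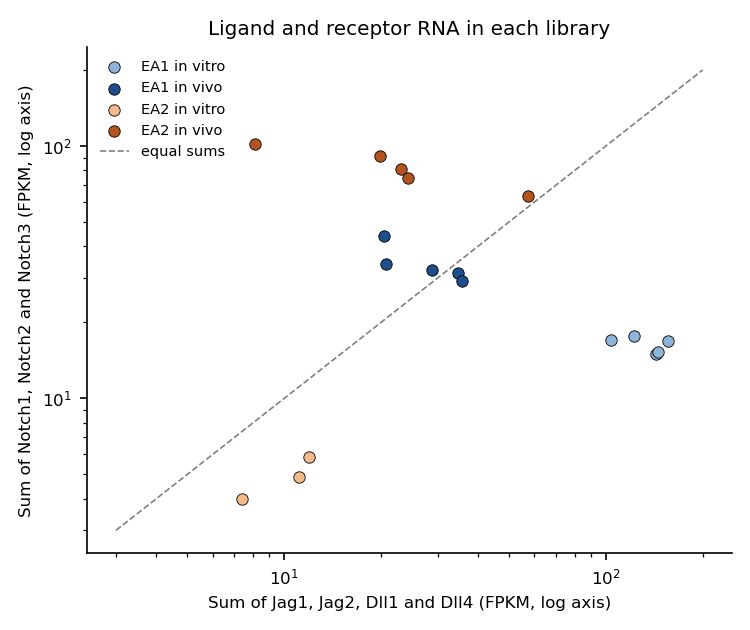
Sum of Notch1, Notch2 and Notch3 against the sum of Jag1, Jag2, Dll1 and Dll4 in each of the 18 libraries (FPKM, log axes; the dashed line marks equal sums). All in vitro libraries lie below the line, and all EA2 in vivo libraries lie above it.

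Of the targets, only Nrarp in EA1 was called. Hes1, a repressor of the basic helix-loop-helix family, was at 34.2 to 63.9 FPKM in EA1 in vitro and 29.96 to 60.7 FPKM in vivo, with no change detected (log2 change 0.00, 95% interval -0.43 to 0.44). In EA2 it was at 19.7, 73.0 and 28.3 FPKM in vitro and at 30.7, 36.9, 41.0, 47.5 and 65.6 FPKM in vivo (log2 change 0.31, 95% interval -0.53 to 1.15); without in vitro library 2, which had the highest value, the change was 0.84 (limma adjusted p = 0.0233). Hey1, a related repressor, was at 0.608 to 1.04 FPKM in EA1 in vitro and 0.809 to 1.52 FPKM in vivo. Its groups overlapped and the limma adjusted p was 0.0574 (log2 change 0.27, exact permutation p = 0.0397). In EA2, Hey1 was at 0.0173, 0.105 and 0.301 FPKM in vitro and at 0.501, 0.0216, 1.26, 2.61 and 0.375 FPKM in vivo; too few libraries reached 1 FPKM for the fit, and the exact permutation p was 0.143.

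Nrarp, which encodes an inhibitor of the Notch nuclear complex and is itself a target, was lower in EA1 tumors. It was at 16.2, 19.6, 20.03, 19.3 and 18.1 FPKM in EA1 in vitro and at 6.70, 9.88, 10.7, 5.81 and 8.50 FPKM in vivo, with no overlap (2.24-fold lower, log2 change -1.10, SE 0.14, limma adjusted p = 3.7e-05). In EA2 it was at 9.31, 18.3 and 23.4 FPKM in vitro and at 13.7, 4.39, 13.0, 48.7 and 16.8 FPKM in vivo, and a change was not detected (log2 change -0.10, 95% interval -1.35 to 1.15). Library 4, the highest for Nrarp, was also the highest EA2 in vivo library for Jag1, Dll4 and Hey1. The endothelial genes Cdh5 and Pecam1 and the mural cell genes Pdgfrb, Rgs5 and Acta2 were highest there too. So were the fibroblast gene Col1a1 (102 FPKM) and the club cell gene Scgb1a1 (152 FPKM). The mural cell gene Myh11 was instead highest in library 5 (0.105 FPKM). Cultured EA2 cells also had Acta2, at 1.52, 0.244 and 8.05 FPKM, so its values are not those of mural cells alone. The part of these cell types in the values was not tested. The difference between the lines in the Nrarp change was 1.00 (SE 0.59, adjusted p = 0.145 in limma).

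Of 49 other genes of the pathway, 36 were tested in EA1 and 14 were called higher and 9 lower, where 30.9% and 40.7% of all genes were called, with a median log2 change of 0.03 against -0.09 for all genes. In EA2, 37 were tested and 27 were called higher and 3 lower, where 32.9% and 24.4% of all genes were called, with a median of 1.03 against 0.18 for all genes. Genes for receptor cleavage were called higher in 6 of 8 tested in EA1 (median 0.39) and 8 of 9 in EA2 (median 1.13), beside the 30.9% and 32.9% of all genes called higher. The EA2 rise was not particular to them. Ubiquitin ligase and endocytosis genes were higher in 9 of 12 tested in EA2 (median 1.03). Genes of the nuclear complex and corepressors were higher in 7 of 11 (median 1.04), and glycosyltransferases in 3 of 4 (median 0.97). In EA1, 2 of 11 nuclear complex and corepressor genes were higher and 6 lower. Adam10, the protease of the first cleavage, was higher in both lines (log2 change 0.28, limma adjusted p = 0.00154 in EA1; 1.88, limma adjusted p = 0.000364 in EA2). Psen2, a catalytic subunit of gamma-secretase, rose from 5.00 ± 0.651 to 13.2 ± 1.05 FPKM in EA1 (SD, n = 5 each).

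Among nuclear factors, the DNA-binding protein gene Rbpj was lower in EA1 with overlapping groups (52.4 ± 9.05 in vitro, 27.3 ± 8.95 FPKM in vivo, SD). Its log2 change was -0.95 in EA1 (limma adjusted p = 0.000892), whereas in EA2 no change was detected (log2 change -0.13, 95% interval -0.79 to 0.53). Spen, a corepressor gene, was lower in EA1 (log2 change -0.67, limma adjusted p = 0.000204) and higher in EA2 (1.28, limma adjusted p = 0.000761). Lfng, a glycosyltransferase that modifies Notch receptors, was lower in EA1 with overlapping groups (-0.44, limma adjusted p = 0.00229) and higher in EA2 (0.93, limma adjusted p = 0.0241). The ubiquitin ligase gene Dtx3l was higher in EA1 (1.17) and in EA2 (3.41), as was Dtx4 (1.06 in EA1, 1.45 in EA2). Mib1, which acts on ligands, was lower in EA1 (-0.69) and higher in EA2 (1.03, limma adjusted p = 0.0058). The interaction term is not reported for these genes. Genes with the longest transcripts had a median log2 change of -0.30 in EA1 and 0.77 in EA2. With the length trend removed, other pathway genes called lower in EA1 went from 9 to 5, and which genes these were is not given here. In EA2 the lowest called changes among tested genes with no overlap were those of Bend6 (-0.85), Dtx3 (-0.59) and Poglut1 (-0.57), a Notch O-glucosyltransferase. Notch4, an endothelial receptor, was at 0.0141 to 0.0185 FPKM in EA1 in vitro and 0.380 to 0.834 FPKM in vivo, and at 0.0365 to 0.149 and 0.101 to 0.364 FPKM in EA2, and it was under the filter in both lines.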

How the data were processed

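RNA was measured by poly(A)-selected, stranded RNA-seq in 18 libraries. The deposited values are FPKM per gene, which the authors made by trimming reads (Trim Galore), aligning to mm10 (STAR) and estimating abundance with Cufflinks (2.0.2 in the submitters' processing notes; the methods give another version). Each line has a table of its own, so tests between conditions were made within a line. Entries with a status word (6 in EA1) or a name turned into a date (27 in EA2) were left out, which kept 24335 and 24320 genes.

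FPKM were tested as log2(FPKM + 1) with limma 3.58.1 (R 4.3.3; trend, Benjamini-Hochberg, threshold 0.05) among genes at 1 FPKM or more in at least 5 libraries (EA1) or 3 (EA2). The difference between lines was the interaction term of a fit over all groups. Each member also had an exact two-sided permutation test over libraries (scipy 1.17.1; 20 tests, not adjusted), with p as 2 times the smaller tail. Another form, the share of arrangements with as large an absolute difference, was also run after the p-values had been seen; it moved no member across 0.05 (Notch1 and Notch2 in EA2 had 0.0179 by it, and Jag1 in EA2 0.0893), and the first form is the one reported.

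Alternatives were the replicate number as a block, a pseudocount of 0.1, no filter or one of 5 FPKM, quantile normalization, scaling by median of ratios, a robust variant of the empirical Bayes step, removal of the trend with transcript length (loess, span 0.3; GENCODE lengths), each library left out, and EA2 in vitro library 2 alone. The fitting code was tested on simulated data. Fragments behind low values were estimated from FPKM times bases over the lowest cluster in transcripts of 1500 to 2500 bases. Read depth per library is unknown, so no counting intervals are given.

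The members and gene lists were chosen with earlier results of these data known. All 10 members are named; of the other pathway genes, those named are the 3 called genes with the highest and the 3 with the lowest change in each line whose groups do not overlap, plus Rbpj, Adam10, Notch4 and Lfng; some genes that this rule names are not reported here.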

Additional observations from a re-analysis of the deposited data

Results flagged for a closer look

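The changes of 4 genes differed between the lines by the interaction term in limma. The EA2 change minus the EA1 change was 3.91 for Jag1, 2.30 for Jag2, 1.59 for Notch1 and 3.03 for Notch2, with adjusted p-values of 2.93e-05, 7.11e-05, 6.91e-05 and 9.61e-08. Jag1 was lower in EA1 tumors. Its EA2 rise was near the threshold, with overlapping groups, and was lost with 6 of 8 libraries left out in turn. Both receptors were higher in vivo in both lines with the greater change in EA2. The EA2 in vitro libraries with low values for long transcripts enter each of these differences.

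Single libraries stood apart from the other 4 of their group in 2 of 30 combinations of gene and group tested, and chance flags about 5%. Dll1 was at 1.63 FPKM in EA1 in vivo library 4, and Nrarp was at 48.7 FPKM in EA2 in vivo library 4.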

How the results depend on the processing

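In EA1, the calls of Jag1, Jag2, Notch1, Notch2 and Nrarp held under every alternative that tested them and with each library left out. So did the call of Notch2 in EA2 and the differences between lines for Jag1, Jag2, Notch1 and Notch2. The calls of Notch3 in EA1 and Notch1 in EA2, given as a description, also held. The cause of the changes below was not tested.

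With the EA2 in vitro replicate 2 alone, 2 Notch genes and 14 other pathway genes were called higher in EA2 and 1 pathway gene lower, the log2 changes of Jag2 (-0.47), Dll4 (-0.10) and Hes1 (-0.75) reversed, and the Hes1 difference between lines was -0.76. Quantile normalization gave 5 Notch genes lower in EA1 (Dll1 and Hey1 added; Hey1 reversed to -0.36), 5 other pathway genes lower in EA2 and a Notch3 difference of 0.016. With the length trend removed, 5 other pathway genes were lower in EA1, Hes1 in EA1 was -0.22 and Jag2 in EA2 was -0.13. A pseudocount of 0.1 gave 1 difference called lower, that of Dll4, and a Notch3 difference of 0.43; median-of-ratios scaling gave a Hes1 difference of -0.037.

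With 1 library left out, log2 changes ranged from -0.17 to 0.0090 for Dll1 and from -0.12 to 0.17 for Hes1 in EA1, from -0.027 to 0.64 for Jag2, from -0.084 to 0.84 for Hes1 and from -0.51 to 0.29 for Nrarp in EA2, and the differences from -0.58 to 0.080 for Dll4 and from -0.089 to 0.83 for Hes1. The other pathway genes called lower in EA2 ranged from 0 to 3.

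Deviations of same-numbered libraries had a correlation between -0.06 and 0.08 for EA1 and between -0.13 and 0.01 for EA2. Libraries with unlike numbers had a correlation between -0.12 and 0.12 for EA1 and between -0.20 and 0.33 for EA2. With so few libraries, these values cannot show whether replicate numbers pair the samples. With the replicate block, 3 Notch genes were higher and 3 lower in EA1, 4 higher and 0 lower in EA2, and other pathway genes called lower in EA2 went from 3 to 1.

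Over all genes, no filter gave 5618 higher and 4868 lower in EA1 against 3459 and 4560. The lone EA2 in vitro library gave 1603 higher and 1667 lower in EA2 against 3643 and 2702, and 2517 greater changes in EA2 against 4327. Median-of-ratios scaling moved the median change of all EA2 genes from 0.18 to -0.01 and turned the split of differences from 4327 and 3230 to 3352 and 4162.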
